A study of Mus musculus with 12 samples.

Results

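The 8 rows of the expression files described here are Pcna and 7 gene copies, namely Pcna-ps2, Rpl3-ps1, Hmgb1-ps1, Eif3j2, Gm3650, Gm10175 and AC154767.3. The copies were chosen because their levels in Slit2-Tg hearts differed from those in C57BL/6J hearts, with or without ischemia, and Pcna was added as a parent gene. They are 8 of 52858 genes in the files, and all 8 were among the 15240 genes with enough reads to be tested. Because measured genotype differences chose them, genotype differences of the 8 members are given below as a description without a test.

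RNA of mouse hearts was sequenced in 4 groups of 3 hearts each. The groups C57-non-IR and C57-IR are C57BL/6J mice, and the groups named Slit2-non-IR or Slit2-IR are Slit2-Tg mice, which carry a human Slit2 cDNA under the CMV promoter. The transgene was injected into C57 × CBA F1 oocytes, and the mice were males of 3 to 5 months. Each heart was perfused ex vivo on a Langendorff system. IR hearts were equilibrated for 20 min, kept without flow for 20 min and reperfused for 40 min, and non-IR hearts were perfused for 80 min without interruption. Whether the control mice were littermates is not given in the sources used here. The transgene and anything else that the Slit2-Tg line carries were present in every Slit2-Tg heart and cannot be told apart.

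A processed pseudogene arises when a spliced messenger RNA is copied back into DNA and inserted elsewhere in the genome. Such a copy has no introns, resembles its parent gene's transcript base for base, and often cannot encode a working protein. Because copy and parent are so alike, a short sequencing read from one can align to the other, so the level given to a copy and the level given to its parent are not measured independently.

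Read totals on genes ranged from 16601154 to 24841291 per library, and mitochondrial genes took 19.7 to 26.0% of them. Summed FPKM (fragments per kilobase of transcript, scaled for library depth) of 5 ventricular muscle genes lay between 12067 and 18489 in all 12 hearts. The 6 dividing-cell markers summed to 0.393 to 1.89 FPKM, and 6 atrial markers to 19.9 to 233 FPKM except in 1 Slit2-IR heart, at 1714 FPKM. Library 1 of each group differed more from the other libraries of its group than they did from each other. Mouse Slit2, which is not the human transgene, averaged 0.195 ± 0.0233 FPKM in C57-non-IR and 0.178 ± 0.00799 FPKM in Slit2-non-IR hearts (SD, n = 3). With IR it averaged 0.243 ± 0.0348 FPKM in C57BL/6J and 0.350 ± 0.402 FPKM in Slit2-Tg hearts, 1 of which was at 0.813 FPKM.

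All 7 copies lie on another chromosome than their parents, in GRCm38 coordinates. Pcna-ps2 (ENSMUSG00000067608), a single-exon row named protein-coding in the files and a processed pseudogene in GENCODE M21, is at chr19:9283238-9284494, whereas Pcna (ENSMUSG00000027342), with 6 exons, is at chr2:132249162-132253314. Rpl3-ps1 (ENSMUSG00000084349) is a processed pseudogene at chrX:13202571-13203780, and Rpl3 (ENSMUSG00000060036) is at chr15:80077794-80091868. Hmgb1-ps1 (ENSMUSG00000084129) is a processed pseudogene at chr11:41141763-41142396, and Hmgb1 (ENSMUSG00000066551) is at chr5:149046702-149184489. Eif3j2 (ENSMUSG00000043424) is annotated as a protein-coding gene of 1 exon at chr18:43475418-43477796, and Eif3j1 (ENSMUSG00000027236), with 8 exons, is at chr2:122028546-122056598. Gm3650 (ENSMUSG00000097891), an unprocessed pseudogene of 5 exons, ends 248 bases from Eif3j2 on the opposite strand, at chr18:43472816-43475169.

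For Gm3650, Gm10175 and AC154767.3, whose symbols name no parent, the coding gene sharing most identical bases was taken as the parent. Gm3650 matched Spg11 (ENSMUSG00000033396, chr2:122053520-122118386) at 746 of 747 bases. Gm10175 (ENSMUSG00000066724, chr7:23946646-23947290), a transcribed processed pseudogene, matched Atp5g2 (ENSMUSG00000062683, chr15:102662864-102672352) at all 645 bases. AC154767.3 (ENSMUSG00000114547, chr13:112593743-112595084), a processed pseudogene, matched Tuba1b (ENSMUSG00000023004, chr15:98931425-98934565) at 98.7% of aligned bases. Eif3j1 and Spg11 overlap by 3079 bases at chromosome 2, and Eif3j2 and Gm3650 lie beside each other as Eif3j1 and Spg11 do. Gm3650 also aligned, in 5 stretches on the opposite strand, to the Eif3j1 transcript. Together these stretches span all 747 bases of Gm3650, so reads at that locus without strand information could be given to either row.

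Sequence stretches of 60 bases are shown for 4 pairs, because within them a read could tell the copy from its parent at the capital letters only. All stretches lie in the coding part of the parent, run 5′ to 3′ on the gene's strand, come from GRCm38, and substitutions are written as parent base, position in the copy's transcript counted from 1, and copy base. The Pcna-ps2 stretch at chr19:9283509-9283568 on the plus strand differs from Pcna exon 1, chr2:132252847-132252906 on the minus strand, by A143G and A176C.
Pcna-ps2: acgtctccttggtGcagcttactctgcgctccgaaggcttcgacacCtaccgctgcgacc
Pcna: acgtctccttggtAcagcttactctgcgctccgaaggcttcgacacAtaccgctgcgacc
The Rpl3-ps1 stretch at chrX:13202598-13202657 on the plus strand differs from Rpl3 exon 2, chr15:80082500-80082559 on the minus strand, by C58A, and the whole copy holds 1 other substitution, T787C.
Rpl3-ps1: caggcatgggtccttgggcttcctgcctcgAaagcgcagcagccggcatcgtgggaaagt
Rpl3: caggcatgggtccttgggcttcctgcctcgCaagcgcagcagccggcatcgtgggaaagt
The Hmgb1-ps1 stretch at chr11:41142329-41142388 on the plus strand differs from Hmgb1 exon 5, chr5:149048762-149048821 on the minus strand, by A609C, A611G, G612A, A615T and C618A, near the end of the coding part that encodes the acidic tail.
Hmgb1-ps1: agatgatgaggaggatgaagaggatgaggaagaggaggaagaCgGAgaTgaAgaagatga
Hmgb1: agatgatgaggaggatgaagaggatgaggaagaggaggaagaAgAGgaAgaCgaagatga
The Gm10175 stretch at chr7:23947134-23947193 on the minus strand has no base that differs from Atp5g2 exon 3, chr15:102665796-102665855 on the minus strand.
Gm10175: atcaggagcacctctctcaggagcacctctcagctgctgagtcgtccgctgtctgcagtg
Atp5g2: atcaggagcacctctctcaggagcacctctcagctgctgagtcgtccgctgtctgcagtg

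Copies differed in how much of their length a read could be assigned by. Identity with the parent was 99.2% for Pcna-ps2, 99.8% for Rpl3-ps1, 96.8% for Hmgb1-ps1, 99.4% for Eif3j2 and 99.9% for Gm3650. For Pcna-ps2, identity and the windows below cover the 781 bases of its GENCODE M21 transcript, whereas its deposited row is 1257 bases long. Its other bases were not compared with Pcna. Of all 100-base windows of the copy, the parent transcript held an exact match for 37.0% in Pcna-ps2, 85.8% in Rpl3-ps1, 26.0% in Hmgb1-ps1, 84.0% in Eif3j2, 84.6% in Gm3650, 100% in Gm10175 and 34.0% in AC154767.3. Counting a match in any other gene, the share was 64.7% in AC154767.3, 94.8% in Rpl3-ps1 and 29.9% in Hmgb1-ps1, and the same as for the parent alone in the other copies. By these windows, the levels of Pcna-ps2 and Hmgb1-ps1 rested on the most distinguishing sequence and that of AC154767.3 on less. Those of Rpl3-ps1, Eif3j2 and Gm3650 rested on little, and that of Gm10175 on none within its own bases. The paper reports paired reads longer than a window, so a read pair could hold more distinguishing bases than these shares show. How reads that fit several places were counted is not given in the sources used here.

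Across genotypes, 6 of the 7 copies had higher FPKM in every Slit2-Tg heart than in any C57BL/6J heart, Hmgb1-ps1 had lower FPKM in every Slit2-Tg heart, and Pcna overlapped. Of the 15240 tested genes, 0.236% were above and 0.177% below in this way, and nothing is read from the members' count since they were chosen on this contrast. For 3 hearts against 3 within a condition, as given below for some rows, the share over all tested genes was not counted. On the log2(FPKM + 1) scale, which understates the change of low genes, the Slit2-Tg minus C57BL/6J difference over both conditions ran from 2.76 (SE 0.25) for Gm3650 to 0.83 (SE 0.09) for Gm10175 among the higher copies. It was 2.12 (SE 0.16) for Pcna-ps2, 1.81 (SE 0.15) for Rpl3-ps1, 1.78 (SE 0.22) for Eif3j2 and 1.25 (SE 0.12) for AC154767.3. It was -0.54 (SE 0.07) for Hmgb1-ps1 and -0.25 (SE 0.16) for Pcna. On this scale, Gm10175 and Hmgb1-ps1 had the smallest differences among the copies, and Pcna was added as a parent gene.

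**Figure D1:**
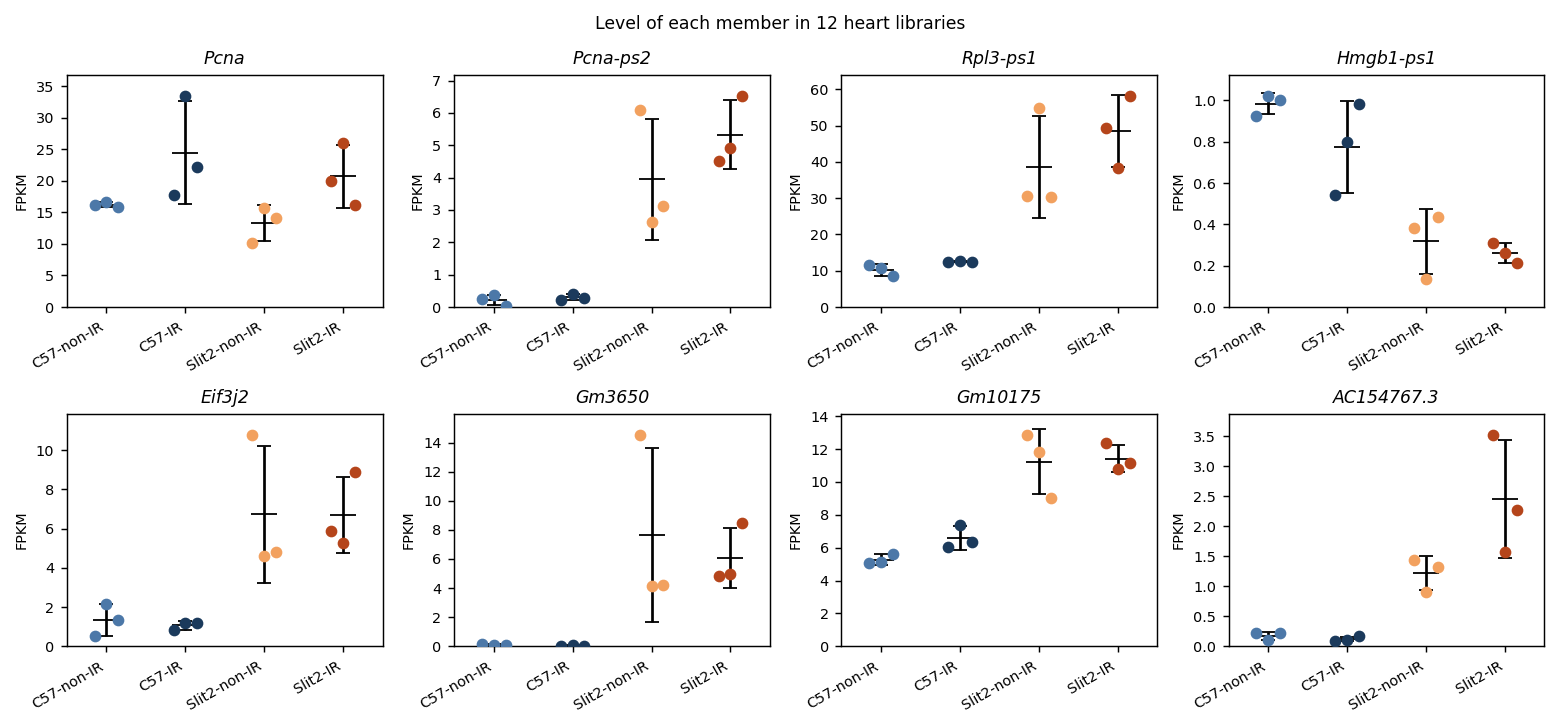
FPKM of the 8 members in each of the 12 hearts (points, by group), with the group mean and SD of 3 hearts (bars). Points of Slit2-Tg hearts lie above all points of C57BL/6J hearts for 6 copies, below them for Hmgb1-ps1, and among them for Pcna.

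Pcna encodes the sliding clamp that holds DNA polymerases on the template during replication and repair. It measured 16.2, 16.6 and 15.8 FPKM in C57-non-IR, 17.8, 33.5 and 22.1 FPKM in C57-IR, 10.2, 15.7 and 14.1 FPKM in Slit2-non-IR, and 19.9, 26.0 and 16.1 FPKM in Slit2-IR hearts. Slit2-non-IR hearts were all slightly below C57-non-IR hearts, with a ratio of means of 0.821, and the IR groups overlapped, with a ratio of 0.846.

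Its copy Pcna-ps2 measured 0.234, 0.369 and 0.0460 FPKM in C57-non-IR and 0.228, 0.403 and 0.283 FPKM in C57-IR hearts, from 1 to 10 reads each. In Slit2-Tg hearts it measured 6.10, 2.62 and 3.11 FPKM without and 4.51, 4.92 and 6.53 FPKM with IR, from 76 to 183 reads each. The copy thus rested on few reads in C57BL/6J hearts and lay well above them in every Slit2-Tg heart, at 18.3 times the C57BL/6J mean without IR and 17.5 times with IR.

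Rpl3 encodes a core protein of the large ribosomal subunit, close to the site where peptide bonds form. Rpl3-ps1 measured 11.5, 10.8 and 8.45 FPKM in C57-non-IR, 12.5, 12.7 and 12.3 FPKM in C57-IR, 30.7, 54.8 and 30.3 FPKM in Slit2-non-IR, and 49.2, 38.3 and 58.3 FPKM in Slit2-IR hearts. Per length, it had the highest FPKM of the copies in every group, and its Slit2-Tg means were 3.77 times the control mean without IR and 3.89 times with IR. Rpl3 itself measured 48.2, 50.5 and 44.1 FPKM in C57-non-IR and 27.3, 22.6 and 38.0 FPKM in Slit2-non-IR hearts. With IR it measured 52.9, 62.4 and 56.9 FPKM in C57BL/6J and 38.8, 43.0 and 28.5 FPKM in Slit2-Tg hearts. Parent and copy thus lay on opposite sides, with Rpl3 lower in every Slit2-Tg heart.

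Eif3j1 and Eif3j2 encode the J subunit of eukaryotic initiation factor 3, which helps place messenger RNA on the small ribosomal subunit. Eif3j2 measured 0.543, 2.16 and 1.36 FPKM in C57-non-IR, 0.819, 1.17 and 1.20 FPKM in C57-IR, 10.8, 4.63 and 4.80 FPKM in Slit2-non-IR, and 5.90, 5.27 and 8.90 FPKM in Slit2-IR hearts. C57-non-IR hearts spread widely among themselves yet stayed below every Slit2-Tg heart, and the ratios of means were 4.97 without and 6.30 with IR. Eif3j1 measured 9.12, 8.97 and 9.97 FPKM in C57-non-IR against 5.90, 7.97 and 7.75 FPKM in Slit2-non-IR hearts, and 11.2, 10.9 and 10.97 FPKM in C57-IR against 10.2, 8.73 and 6.29 FPKM in Slit2-IR hearts. Within each condition the parent was lower in every Slit2-Tg heart, and over both conditions the genotypes overlapped.

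Gm3650, the neighbour of Eif3j2 that resembles the end of Spg11, had 2, 1 and 1 reads in C57-non-IR and 0, 1 and 0 reads in C57-IR hearts. It had 225, 71 and 80 reads in Slit2-non-IR and 73, 89 and 141 reads in Slit2-IR hearts, or 14.5, 4.12, 4.23, 4.81, 4.95 and 8.47 FPKM. The row was thus at or near 0 in all C57BL/6J hearts and clearly detected in all Slit2-Tg hearts. Pooled over the 3 hearts and scaled for depth, the ratio was 76.0 without IR (95% exact counting interval 29.5 to 280.6) and 271 with IR (48.3 to 10744), limits that cover counting error only. Spg11, whose protein acts in lysosome renewal, ranged from 1.67 to 2.103 FPKM in C57BL/6J and from 1.501 to 2.09 FPKM in Slit2-Tg hearts, which overlapped. The heart with the most Gm3650, Slit2-non-IR replicate 1, was also the heart with the most Eif3j2.

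Hmgb1 encodes a chromatin protein that bends DNA and acts as a danger signal when released from cells. Hmgb1-ps1 measured 0.926, 1.02 and 1.002 FPKM in C57-non-IR, 0.542, 0.799 and 0.983 FPKM in C57-IR, 0.380, 0.137 and 0.436 FPKM in Slit2-non-IR, and 0.311, 0.262 and 0.212 FPKM in Slit2-IR hearts. These values rest on 2 to 14 reads a heart, so the ratios of means, 0.323 without and 0.338 with IR, are imprecise. Hmgb1 measured 7.70, 7.15 and 7.96 FPKM in C57-non-IR, 7.88, 8.14 and 8.07 FPKM in C57-IR, 5.29, 5.53 and 5.69 FPKM in Slit2-non-IR, and 3.90, 4.37 and 3.39 FPKM in Slit2-IR hearts. Here copy and parent lay on the same side, both lower in all 6 Slit2-Tg hearts.

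Atp5g2 encodes the membrane ring subunit of mitochondrial ATP synthase. Gm10175 measured 5.10, 5.10 and 5.64 FPKM in C57-non-IR, 6.04, 7.39 and 6.35 FPKM in C57-IR, 12.9, 11.8 and 9.00 FPKM in Slit2-non-IR, and 12.4, 10.8 and 11.1 FPKM in Slit2-IR hearts. The groups did not overlap, and the ratios of means were 2.13 without and 1.73 with IR. Atp5g2 ran from 109.6 to 158 FPKM in C57BL/6J and from 101 to 172 FPKM in Slit2-Tg hearts, which overlapped. Another copy with no base differing from Atp5g2 over its aligned part, Gm10231, overlapped between genotypes too, with means of 1.98 and 2.16 FPKM in C57BL/6J and of 1.04 and 1.26 FPKM in Slit2-Tg hearts, without and with IR.

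Tuba1b encodes an alpha-tubulin of microtubules. AC154767.3 measured 0.219, 0.104 and 0.215 FPKM in C57-non-IR, 0.0854, 0.113 and 0.166 FPKM in C57-IR, 1.44, 0.905 and 1.32 FPKM in Slit2-non-IR, and 3.52, 1.58 and 2.27 FPKM in Slit2-IR hearts. Control hearts held 2 to 5 reads each and Slit2-Tg hearts 28 to 96, and the ratios of means were 6.82 without and 20.2 with IR. Tuba1b was lower in every Slit2-non-IR heart (35.8, 35.9 and 42.8 FPKM) than in any C57-non-IR heart (48.5, 54.6 and 62.1 FPKM), whereas the IR groups overlapped.

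The parent genes other than Pcna were not members, and their genotype difference was tested with limma across all 15240 genes and Benjamini-Hochberg adjustment. The test is not independent of the choice of members, since a read that matches both rows ties the parent's level to that of the chosen copy. Without IR, none of Rpl3, Hmgb1 and Eif3j1 passed an adjusted p of 0.05, where 0.0394% of all tested genes did, and all 3 were lower at an unadjusted p under 0.05, against 3.19% of all genes. A second test by limma-voom on recovered reads gave the same 0 and 3. With IR, 1 of 3 passed, against 0.0459% of all genes (3.16% unadjusted): Hmgb1, with a log2 difference of -0.89 (SE 0.09, limma adjusted p = 0.0039). Over both conditions again 1 of 3 passed, against 0.131% of all genes: Hmgb1 at -0.65 (SE 0.06, limma adjusted p = 0.0013). Slit2-Tg hearts had 218 fewer size-factor-scaled reads on Hmgb1 without and 431 fewer with IR, where those on Hmgb1-ps1 differed by -8.74 and -6.73. Leaving out the 4 libraries numbered 1 gave nearly the same Hmgb1 differences with limma adjusted p of 0.119 with IR and 0.115 over both conditions, where the range over all alternatives was 0.00294 to 0.150 and 0.000959 to 0.115. Rpl3 differed by -0.68 (SE 0.13, limma adjusted p = 0.117) and Eif3j1 by -0.36 (SE 0.11, limma adjusted p = 0.687) over both conditions. Of the parents found by sequence, Tuba1b differed by -0.36 (limma adjusted p = 0.454), Atp5g2 by 0.09 and Spg11 by -0.00, and none passed. Without Slit2-non-IR replicate 3, Rpl3 differed by -0.78 and passed (limma adjusted p = 0.0313, from a range of 0.0313 to 0.590).

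**Figure D2:**
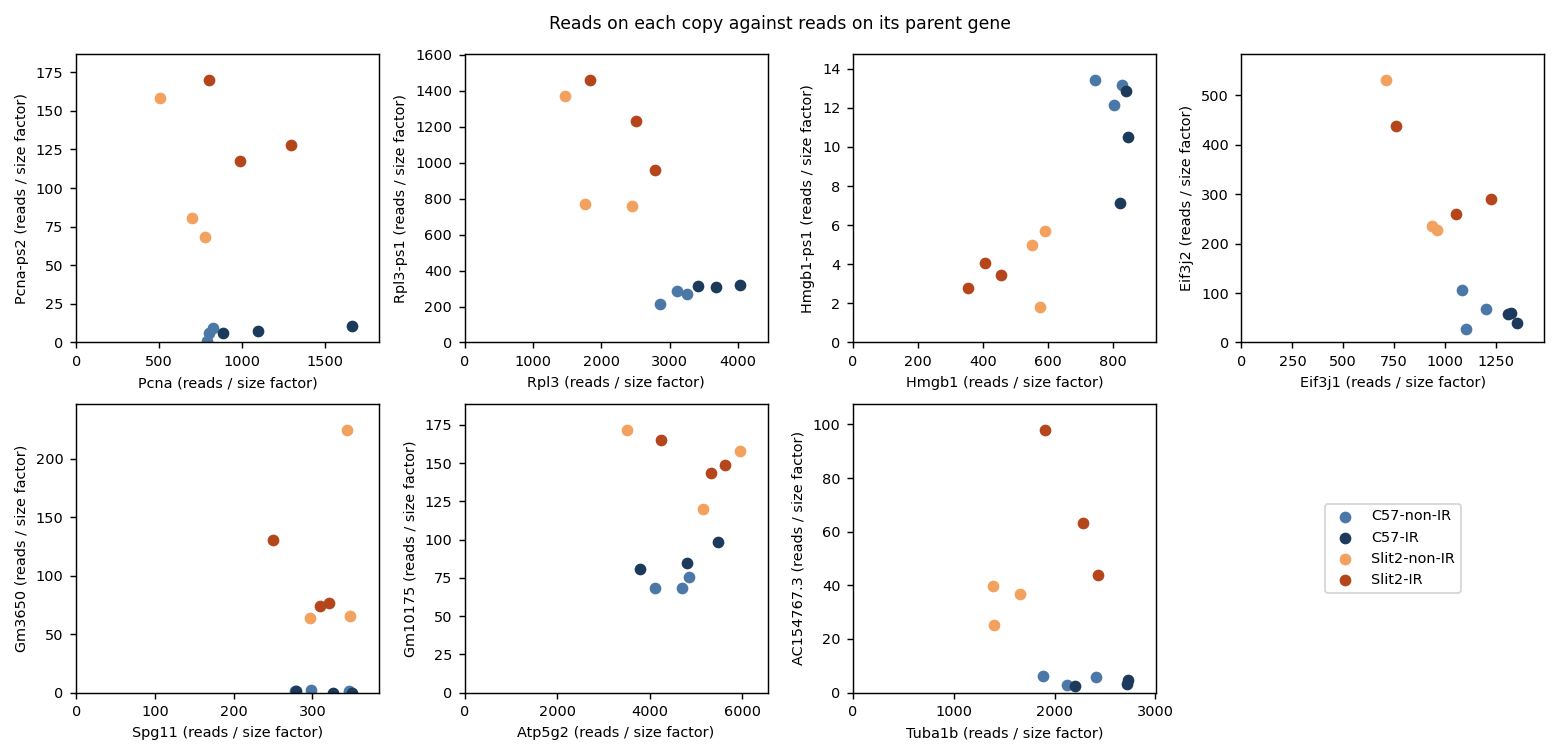
Reads on each copy (vertical axis) against reads on its parent (horizontal axis), each divided by the library's size factor, in the 12 hearts. Slit2-Tg hearts sit above and to the left of C57BL/6J hearts for Rpl3, above them with some overlap along the horizontal axis for Eif3j1, above them for Gm3650, and below and to the left for Hmgb1.

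Copy and parent reads were then summed for each family, the parent plus its named copies, to see how the total divided. In the Rpl3 family, Rpl3-ps1 took 7.68 ± 0.768% of family reads in C57-non-IR and 7.81 ± 0.548% in C57-IR. In Slit2-Tg hearts it took 33.9 ± 12.5% without and 34.1 ± 9.18% with IR (all as mean ± SD of 3 hearts). Without IR, Slit2-Tg hearts had 1180 fewer size-factor-scaled reads on Rpl3 and 709.5 more on Rpl3-ps1. With IR they had 1331 fewer on Rpl3 and 904 more on Rpl3-ps1. The family total differed by -13.6% without and -10.2% with IR, and the genotypes overlapped in both conditions. Thus the difference in the sum was smaller than the difference in either row.

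For Eif3j1, the losses and gains were closer in size. Slit2-Tg hearts had 259 fewer scaled reads on Eif3j1 and 265 more on Eif3j2 without IR, and 316 fewer and 277 more with IR. The family total, in which Gm3650 was not counted, differed by 0.498% without and by -2.85% with IR, with overlap in both. Eif3j2 took 5.53 ± 3.30% and 3.79 ± 0.777% of family reads in C57BL/6J hearts without and with IR, and 27.3 ± 13.3% and 25.2 ± 9.91% in Slit2-Tg hearts. In the Pcna family the totals differed by -5.84% and -4.66% and overlapped, while the Pcna-ps2 share was 0.684 ± 0.502%, 0.653 ± 0.0226%, 14.1 ± 8.54% and 12.4 ± 4.53% in the same order of groups.

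Other families, as grouped here, did not balance in this way. In the Atp5g2 family, parent and copy both had more scaled reads on average in Slit2-Tg hearts. Its total differed by 8.54% without and 9.05% with IR, with overlap, which is less than the Rpl3 total did. Gm3650 was counted with Spg11 only, although its whole length also matches Eif3j1 on the opposite strand. Its 118 scaled reads without and 93.9 with IR in Slit2-Tg hearts are therefore missing from the Eif3j1 total. Family totals of Spg11 plus Gm3650 were higher in Slit2-Tg hearts by 44.8% without and 21.6% with IR, with no overlap, and the Gm3650 share went from 0.504 ± 0.275% and 0.125 ± 0.216% in the control groups to 24.3 ± 13.2% and 24.3 ± 8.72%. The Hmgb1 family, with 9 named copies, differed by -19.4% and -33.6%, with no overlap. Hmgb1-ps1 took 1.48 ± 0.138%, 1.09 ± 0.344%, 0.589 ± 0.296% and 0.568 ± 0.0748% of it in the same order of groups. Gm10175 held 1.53 ± 0.0971% and 1.86 ± 0.191% of the Atp5g2 family in control hearts and 3.17 ± 1.29% and 2.98 ± 0.659% in Slit2-Tg hearts, and AC154767.3 held 0.235 ± 0.0938% and 0.131 ± 0.0328% of the Tuba1b family against 2.24 ± 0.515% and 3.12 ± 1.60%. The Tuba1b family total differed by -29.3% without IR, with no overlap, and by -10.9% with IR, with overlap. How often totals of unrelated genes separate at 3 hearts against 3 was not counted.

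**Figure D3:**
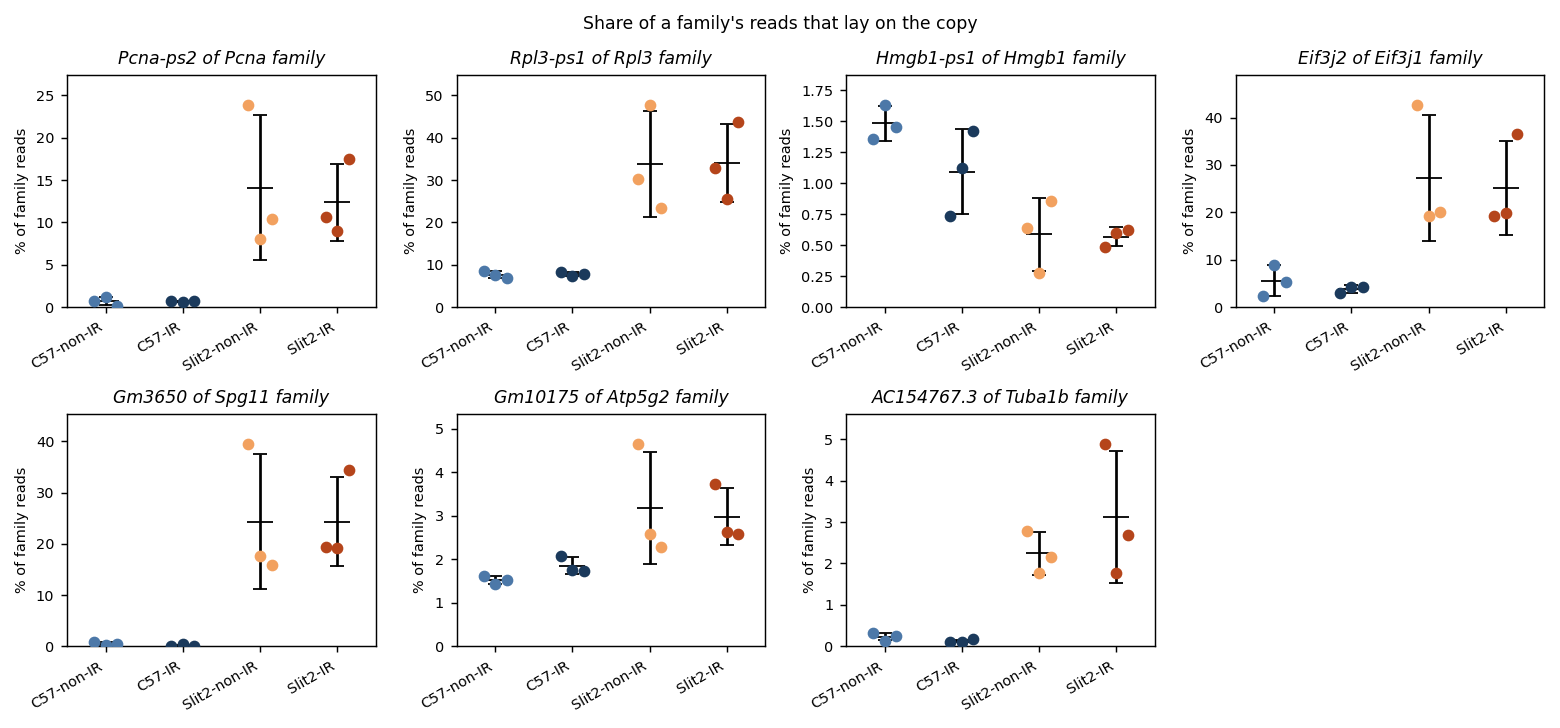
Percent of family reads (parent plus named copies) that lay on the copy in each heart, with the mean and SD of 3 hearts a group. The share is higher in every Slit2-Tg heart for 6 copies and lower on average for Hmgb1-ps1; the widest spread within a group is seen in Slit2-non-IR hearts for Eif3j2 and Gm3650.

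The order of the hearts by copy and by parent was also compared within each group. In Slit2-non-IR, the heart with the highest level of the copy was the heart with the lowest level of the parent in 5 of 7 pairs, and in Slit2-IR in 6 of 7. The matching counts were 3 of 7 in C57-non-IR and 1 of 7 in C57-IR hearts. Replicate 2 of Slit2-non-IR held the most Rpl3-ps1 and the least Rpl3, and replicate 1 held the most Pcna-ps2 and Eif3j2 and the least Pcna and Eif3j1. With 3 hearts a group, unrelated rows would match in 1 of 3 cases, and the share over all pairs of genes was not counted. In Slit2-IR the matching hearts were replicates 1 and 3 only. Eif3j2 and Gm3650 lie beside each other, and some copies had few reads in C57BL/6J hearts. All pairs share the same 3 hearts of a group, so these counts are a description without a test.

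Over the 12 hearts, Pearson's r of log2(FPKM + 1) between copy and parent was -0.79 for Rpl3-ps1 with Rpl3, -0.80 for Eif3j2 with Eif3j1, -0.38 for AC154767.3 with Tuba1b, -0.28 for Pcna-ps2 with Pcna, -0.04 for Gm3650 with Spg11, 0.16 for Gm10175 with Atp5g2 and 0.83 for Hmgb1-ps1 with Hmgb1. These values mix the genotype difference with the spread between hearts of 1 genotype, and all use the same 12 libraries. The 6 higher copies were closer to each other (r from 0.863 to 0.979) than to their parents (r from -0.80 to 0.16), and the genotype difference they were chosen on enters every such r. Closest to Pcna-ps2 were Gm3650 (r = 0.979), Eif3j2 (r = 0.960) and Akap2 (r = 0.947), a gene for a protein kinase A anchor. Closest to Rpl3-ps1 were Akap2 (r = 0.945), Gm10175 (r = 0.929) and Pcna-ps2 (r = 0.927), and closest to AC154767.3 were Bex1 (r = 0.973), Pcna-ps2 (r = 0.924) and Armcx4 (r = 0.921). Eif3j2 was most like Gm3650 (r = 0.967), Pcna-ps2 and Gm14085 (r = 0.924), and Gm10175 was most like Akap2 (r = 0.963). Hmgb1-ps1 was most like Cd59b (r = 0.904), Tspan17 (r = 0.874) and 2810002D19Rik (r = 0.861). Pcna alone followed another pattern, closest to the immediate-early transcription factor gene Egr3 (r = 0.946), Sertad1 (r = 0.945) and the prostaglandin receptor gene Ptger4 (r = 0.943).

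The choice of copies used the levels of the IR and non-IR groups, though not the difference between them. That IR difference was tested, but the test is not independent of the choice. A copy chosen for its level in either condition can show an IR difference for that reason alone. No member passed an adjusted p of 0.05 by limma in C57BL/6J hearts, where 0.459% of all tested genes did, and 1 member, Pcna, had an unadjusted p under 0.05, against 8.96% of all genes. For Pcna-ps2 (1 to 10 reads a heart), Gm3650 (0 to 2 reads) and AC154767.3 (2 to 5 reads) the test in C57BL/6J hearts says nothing, since these rows passed the read filter through the Slit2-Tg hearts and were near the lowest value the scale allows in C57BL/6J hearts. In Slit2-Tg hearts again none passed, against 0.525% of all genes, and Pcna and AC154767.3 had an unadjusted p under 0.05, against 11.2% of all genes. For Hmgb1-ps1 (2 to 7 reads a heart) the test in Slit2-Tg hearts says nothing, since this row passed the read filter through the C57BL/6J hearts. The limma-voom test gave 0 called in both genotypes, with 1 and 2 members at an unadjusted p under 0.05. The median log2 difference over the 8 members was 0.018 in C57BL/6J and 0.21 in Slit2-Tg hearts, beside 0.0015 and 0.0053 over all tested genes. Both medians include rows for which the test says nothing and rows chosen on their levels. No shared IR response is read from them.

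Pcna differed by 0.52 (SE 0.23, limma adjusted p = 0.528) with IR in C57BL/6J and by 0.59 (SE 0.23, limma adjusted p = 0.336) in Slit2-Tg hearts, larger values than those of Pcna-ps2, which were 0.11 (SE 0.22) and 0.41 (SE 0.22). Without C57-IR replicate 2, the heart at 33.5 FPKM, the Pcna difference in C57BL/6J was 0.28. AC154767.3 differed by -0.07 (SE 0.17) in C57BL/6J and by 0.61 (SE 0.17, limma adjusted p = 0.147) in Slit2-Tg hearts. The difference between those responses, 0.68 (SE 0.24), is also the difference between the genotype differences that chose the copies, so it is given without a test. Rpl3-ps1 differed by 0.27 and 0.36 (SE 0.22 each), Gm10175 by 0.27 and 0.03 (SE 0.12 each), Hmgb1-ps1 by -0.17 and -0.06 (SE 0.10 each), Eif3j2 by -0.14 and 0.05 (SE 0.31 each) and Gm3650 by -0.10 and -0.11 (SE 0.35 each) in C57BL/6J and Slit2-Tg hearts, with no call.

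**Figure D4:**
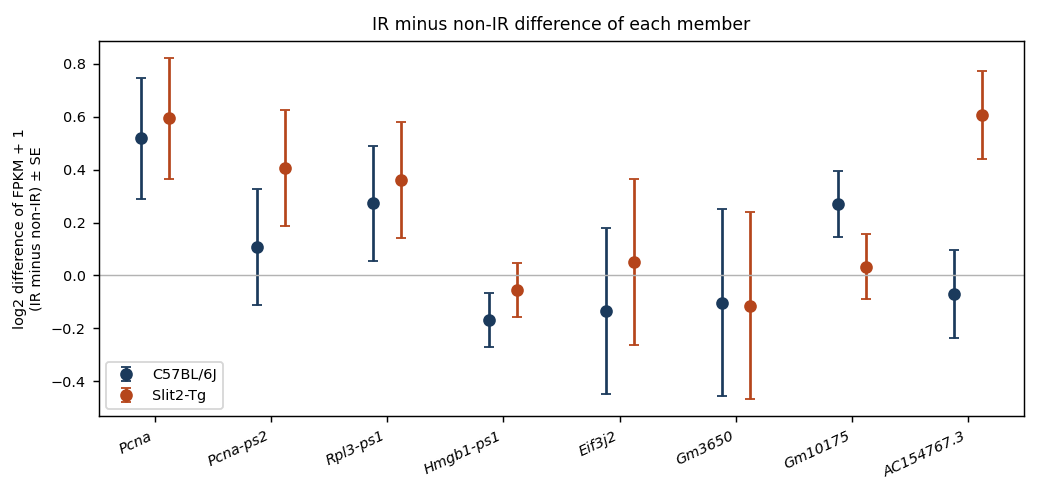
IR minus non-IR difference of log2(FPKM + 1) for each member in C57BL/6J and Slit2-Tg hearts, with the standard error of the limma fit over 12 hearts. Pcna has the largest difference in C57BL/6J hearts (0.52), and Pcna (0.59) and AC154767.3 (0.61) have the largest in Slit2-Tg hearts.

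The copy's share of its family was compared between IR and non-IR hearts. By a two-sided exact permutation test of 3 hearts against 3, which cannot give a p below 0.1, the smallest p was 0.1, for Gm10175 in C57BL/6J hearts, whose share of the Atp5g2 family was higher by 0.332 percentage points. The other 13 tests of a share gave exact p from 0.2 to 1, and the smallest value adjusted over the 14 was 0.7. At 3 hearts a group these tests could not pass 0.05, so they do not show that the shares were alike. Shares of Pcna-ps2 differed by -0.0305 percentage points in C57BL/6J and by -1.73 in Slit2-Tg hearts, and shares of Rpl3-ps1 by 0.128 and 0.254. In the same order, shares of Eif3j2 differed by -1.74 and -2.16, of Gm3650 by -0.380 and -0.000286, and of Hmgb1-ps1 by -0.391 and -0.0207 percentage points. The share of AC154767.3 differed by -0.104 and 0.873, and that of Gm10175 in Slit2-Tg hearts by -0.192 percentage points. Family totals of Pcna were higher in every IR heart than in any non-IR heart of the same genotype, by 412 scaled reads in C57BL/6J and 403 in Slit2-Tg hearts, and those of Rpl3 by 691 and 730 (exact permutation p = 0.1 each). The same exact permutation p of 0.1 was reached by Hmgb1 (63.9 reads) and Eif3j1 (186) in C57BL/6J and by Tuba1b (758) in Slit2-Tg hearts. The remaining totals gave exact permutation p from 0.2 to 0.9, and no adjustment was made over the totals.

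Genes around the members and parents were examined to see whether the rows stood alone. Among the 40 nearest tested genes, 2 on each side, 0 passed by limma over both conditions and 5 had an unadjusted p under 0.05, with the same 0 and 5 by limma-voom. Over all tested genes the shares by limma were 0.131% and 4.13%. Next to AC154767.3, Il6st, a receptor subunit for the interleukin-6 family, differed by 0.26 (SE 0.09, limma adjusted p = 0.946), and next to Eif3j1, Casc4 differed by -0.36 (SE 0.08, limma adjusted p = 0.303). The neighbours of Rpl3-ps1, Usp9x and Ddx3x, differed by 0.20 (SE 0.16) and -0.01 (SE 0.10), and those of Eif3j2 and Gm3650, Dpysl3 and Stk32a, by 0.14 (SE 0.15) and 0.01 (SE 0.05).

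Wider windows of 2 Mb on each side of the parent genes held some called genes. Around Rpl3, 2 of 85 tested genes passed over both conditions by limma, C1qtnf6 at 1.29 and Elfn2 at 0.30, and 17.6% had an unadjusted p under 0.05, against 4.13% of all tested genes. Around Eif3j1, 1 of 51 passed, Gm14085 at 0.75, and 27.5% had an unadjusted p under 0.05. Around Hmgb1, 1 of 25 passed, Slc7a1, a cationic amino acid transporter, at -1.003 (limma adjusted p = 0.00078), and 4% had an unadjusted p under 0.05. No gene passed around Pcna (45 tested, 6.67% unadjusted), Atp5g2 (47 tested, 4.26%) or Tuba1b (64 tested, 6.25%). The window around Spg11, which overlaps Eif3j1, held 50 tested genes and the same Gm14085, with 28% at an unadjusted p under 0.05. By limma-voom, 1 gene each passed around Rpl3, Eif3j1, Spg11 and Hmgb1 and 0 around Pcna, Atp5g2 and Tuba1b. Genes of a window share a chromosome segment and are not independent.

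**Figure D5:**
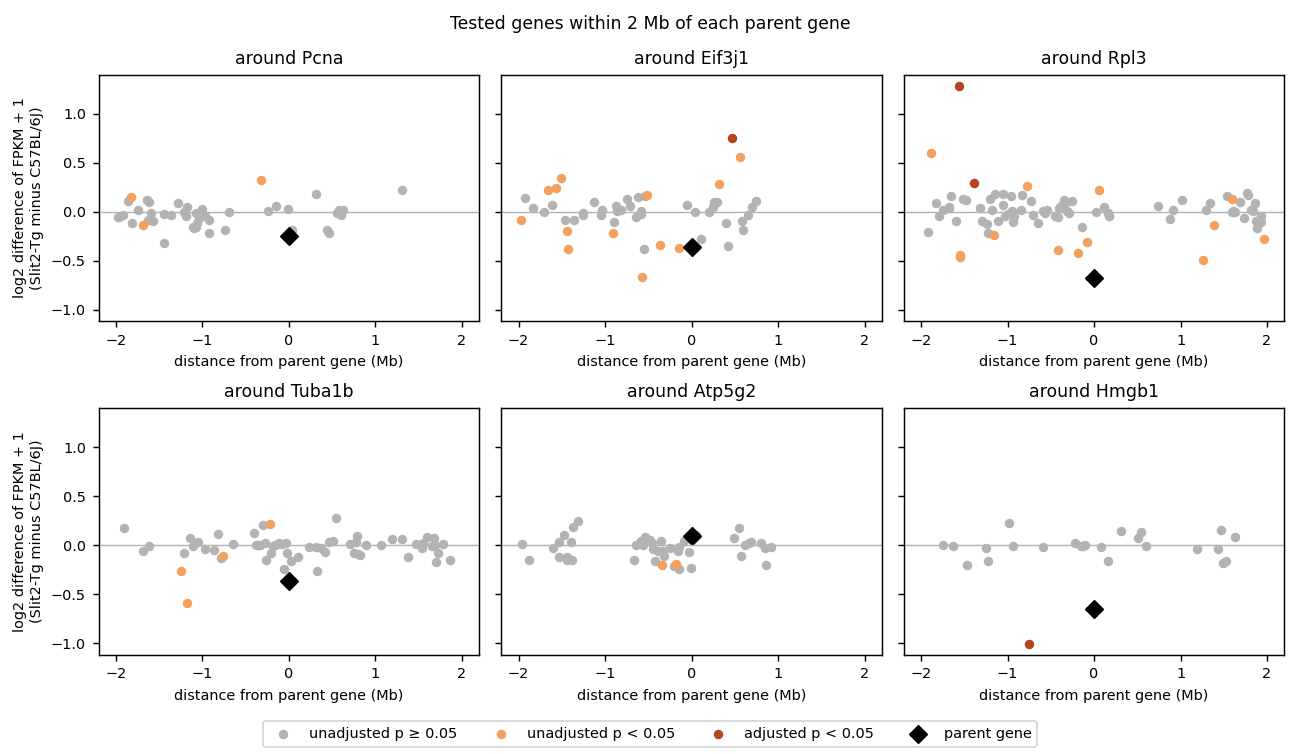
Slit2-Tg minus C57BL/6J difference of log2(FPKM + 1) over both conditions for tested genes within 2 Mb of each parent gene, against the distance from the parent in Mb. C1qtnf6 stands out near Rpl3 (1.29), Gm14085 near Eif3j1 (0.75) and Slc7a1 near Hmgb1 (-1.003).

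Other copies of the same parents were also measured. Of 10 further rows named as Pcna, Rpl3, Hmgb1 or Eif3j copies, 2 could be tested and 0 passed by limma over both conditions, 1 with an unadjusted p under 0.05 (limma-voom gave 0 and 1). Rpl3-ps2 had 1, 1, 2, 3, 4 and 4 reads in the 6 C57BL/6J hearts and 6, 44, 21, 5, 23 and 34 reads in the 6 Slit2-Tg hearts, above in all, with a difference of 0.64 (SE 0.17). Rpl3-ps2, the 1 with an unadjusted p under 0.05, passed the read filter through the Slit2-Tg hearts only. Its genotype test therefore says nothing, and its values are a description. Its highest hearts, replicate 2 of Slit2-non-IR and replicate 3 of Slit2-IR, are those that were highest for Rpl3-ps1. Hmgb1-ps2 differed by 0.82 (SE 0.40, limma adjusted p = 0.999) and was high in replicate 1 of C57-IR (10.4 FPKM) and of both Slit2-Tg groups (17.1 FPKM without and 32.5 FPKM with IR). By alignment, 61 further copies were found, of which 12 could be tested, and 0 passed by limma while 4 had an unadjusted p under 0.05 (0 and 4 by limma-voom). Among these, Gm15387, an Hmgb1 copy, differed by 0.72 (SE 0.13, limma adjusted p = 0.102) and Gm14150, a Tuba1b copy, by 0.57 (SE 0.10, limma adjusted p = 0.071). Both were above in all 6 Slit2-Tg hearts, so for Hmgb1 the copies lay on either side.

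Genes that work with the parents were counted by list. None of 29 tested partners of PCNA in replication and repair passed by limma over both conditions; 13 were higher and 16 lower, with a median of -0.00. Among them Cdkn1a, an inhibitor of cell-cycle kinases that binds PCNA, had the largest genotype difference, at -0.42 (SE 0.40, limma adjusted p = 0.999). It also had the largest IR minus non-IR difference of the list in both genotypes, 1.12 (SE 0.57, limma adjusted p = 0.633) in C57BL/6J and 1.49 (SE 0.57, limma adjusted p = 0.330) in Slit2-Tg hearts. None of 43 other large ribosomal subunit genes passed, although 42 were lower in Slit2-Tg hearts, 5 at an unadjusted p under 0.05, with a median of -0.15 beside -0.00 over all tested genes. The largest was Rpl21 at -0.41 (SE 0.33, limma adjusted p = 0.999), and the Rpl3 value of -0.68 lies beyond it. None of 12 other subunits of initiation factor 3 passed, with a median of -0.04 and Eif3f at -0.12, and none of 7 tested high mobility group genes, with a median of 0.01 and Hmgb2 at -0.17. No gene of these 4 lists passed by limma-voom either, and at an unadjusted p under 0.05 it gave 3 ribosomal genes and 0 in the other lists, where limma gave 5 and 0.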

How the data were processed

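The authors deposited FPKM values of 52858 genes, 1 file per group and 3 hearts per group. The submitters' notes name HISAT2 and mm10, and the library kit was NEBNext Ultra RNA. The counting tool, annotation release, strand setting and treatment of reads with several alignments are not given in the sources used here. The 12 deposited columns were all used. Every value was a whole multiple of 1 read's worth within 0.01, so reads were recovered for 100% of values. Read totals of 16601154 to 24841291 per library set the precision of low copies.

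Genotype came from the labels, and IR from the sample titles read against the study's methods. Genes with the equivalent of 10 reads in at least 3 libraries and 15 reads in total were kept (15240). The main test was limma 3.58.1 in R 4.3.3, with a variance trend, on log2(FPKM + 1) of all 12 libraries in 4 groups, adjusted by Benjamini-Hochberg over all tested genes, with a threshold of 0.05. Limma-voom and TMM scaling, the trimmed mean of M values, were applied to recovered reads. Copies were aligned to GENCODE M21 transcripts with BLAST 2.17.0. A family was a parent plus its named copies, or, as an alternative, all copies of at least 95% identity over 80% of their length. Exact permutation tests used scipy 1.17.1. On simulated reads for Slit2-IR against C57-IR with 200 of 15240 genes changed 4-fold, 192 (96%) were recovered with 7 false calls. Only genes above a minimum mean read count were changed, and all genes had the same spread with no outlying library. The 96% therefore does not describe rows with few reads.

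Genes named are the 8 members, their parents, rows named as their copies, the 2 nearest tested genes on each side, the 3 genes most alike by r, mouse Slit2 and, in each list, the largest difference. Of these, the neighbours named, copies found by alignment and genes within 2 Mb were picked after their values were seen. Members and lists were chosen with earlier results of these data known. Labels do not say whether the hearts were handled in batches. Same-numbered hearts deviated together in Slit2-IR with C57-IR (r 0.285, 0.154 and 0.362) and Slit2-IR with Slit2-non-IR (0.291, 0.294 and 0.143), but not in all pairs of Slit2-non-IR with C57-non-IR (0.0377 for number 2) or C57-IR with C57-non-IR (0.0833 for number 3). Alternatives were another pseudocount, other filters, TMM scaling, limma-voom, fits of only the groups compared, a replicate block and leaving out libraries.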

Additional observations from a re-analysis of the deposited data

How the results depend on the processing

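Low copies are limited by depth: Hmgb1-ps1 rests on 2 to 14 reads a heart and Gm3650 on 0 to 2 in control hearts. The counts of members called with IR in either genotype and of neighbours and other named copies called were 0 under every alternative run, and so was the count of parents called without IR. The count of parents called with IR was 1, and 0 with only the 6 libraries compared (Hmgb1 limma adjusted p = 0.150) and 0 without the 4 libraries numbered 1, an alternative chosen after seeing the data. Over both conditions it was 1, 0 without those 4 libraries, and 1 to 2 leaving out 1 library in turn. Further copies found by alignment called were 0, and 0 to 1 leaving out 1 library in turn, reaching 1 without Slit2-IR replicate 2 or replicate 3. Under the replicate block, the parents called stayed at 1 with IR and 1 over both conditions (Hmgb1 limma adjusted p = 0.0147 and 0.00584), and the block changed no other call.

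Counting shares on summed FPKM instead of reads gives short copies more weight by construction. The Slit2-Tg minus C57BL/6J difference in share, without and with IR, was then 22.0 and 19.8 percentage points for Pcna-ps2 (13.4 and 11.7 by reads), 38.3 with IR for Rpl3-ps1 (26.3), 35.5 with IR for Eif3j2 (21.4), 69.6 and 75.0 for Gm3650 (23.8 and 24.2), 3.93 and 2.69 for Gm10175 (1.64 and 1.12), 2.78 without IR for AC154767.3 (2.01) and -4.93 and -3.62 for Hmgb1-ps1 (-0.895 and -0.525), the latter -0.519 without IR over all aligned copies.

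Leaving out 1 library in turn reversed some IR differences near 0 whose cause was not tested: Hmgb1-ps1 in Slit2-Tg hearts ran from -0.16 to 0.0098, Eif3j2 from -0.41 to 0.11 in C57BL/6J and -0.14 to 0.40 in Slit2-Tg hearts, Gm10175 from -0.10 to 0.13 and Gm3650 from -0.39 to 0.41 in Slit2-Tg hearts, and the Spg11 genotype difference from -0.035 to 0.031. Gm3650 was 0.54 without the 4 libraries numbered 1. The direction of every other genotype difference of members and parents given over both conditions was kept.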

Other observations

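Pseudogenes other than the members were counted by where their parent gene lies, a grouping chosen after values were seen. Of 700 tested pseudogenes that are no member, 1 passed by limma over both conditions, Gm7729, a copy of Hnrnpa1 on chromosome 15, and 7.71% had an unadjusted p under 0.05, against 4.13% of all tested genes. Of 112 whose parent lies on chromosome 2, 5 or 15, the chromosomes of the members' parents, 1 passed and 11.6% had an unadjusted p under 0.05. Of 512 whose parent lies on another chromosome, 0 passed and 6.25% had an unadjusted p under 0.05. Of 76 for which no coding parent was found, 0 passed and 11.8% had an unadjusted p under 0.05. Higher in every Slit2-Tg heart than in any C57BL/6J heart were 4 of the 112, 3 of the 512 and 0 of the 76, against 0.236% of all tested genes. Lower in this way were 0 in each set, against 0.177% of all tested genes. Rpl3-ps2, Gm15387 and Gm14150, copies of Rpl3, Hmgb1 and Tuba1b described above, are among the pseudogenes that were higher in every Slit2-Tg heart. These counts thus partly repeat the members' own families. Chromosomes 2, 5 and 15 were themselves set by members chosen on genotype differences. On these chromosomes themselves, 2 of 1182 tested genes of chromosome 2, 2 of 982 of chromosome 5 and 3 of 567 of chromosome 15 passed, of 20 in all. No test of the grouping was made.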
